A study of Mus musculus with 6 samples.

Results

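The genes described here are 10 genes of cell cycle arrest and the p53 pathway, measured in the liver of old mice with and without Itpr2. They were taken by symbol, through the accession that the array gives each probe, and are 10 of 32095 genes or transcripts with a probe on the array. They comprise 3 inhibitors of cyclin-dependent kinases (Cdkn1a, Cdkn2a and Cdkn2b), p53 itself and its antagonist (Trp53 and Mdm2), the p53 target Ccng1, the 3 GADD45 genes (Gadd45a, Gadd45b and Gadd45g) and lamin B1 (Lmnb1). Of their 13 probes, 10 entered the fit, 1 for each gene, so all 10 genes passed the filter on dim probes. The 3 other probes are second probes of Cdkn1a, Cdkn2a and Cdkn2b and are given with those genes.

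Total RNA from frozen liver of 3 Itpr2 knockout mice (KO 1 to KO 3) and 3 wild-type mice (WT 1 to WT 3) was hybridised to 1-colour Agilent arrays. Both genotypes were C57Bl/6 mice of a survival cohort, killed at 23 months, on a standard diet in a pathogen-free facility and without treatment. The design text calls the mice of each genotype independent. Sex, and whether Itpr2 was deleted in the whole body or in 1 cell type, are not stated there. Itpr2 encodes an inositol trisphosphate receptor, a calcium release channel of the endoplasmic reticulum. Each level is a log2 signal after subtraction of that array's 75th percentile, so a level of 0 is the signal at that percentile, and levels are not compared between probes. Differences are KO minus WT on the log2 scale.

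When DNA is damaged or other stress arises, p53 is stabilised and switches on genes that halt the cell cycle, above all Cdkn1a, which encodes p21, an inhibitor of cyclin-dependent kinases. Mdm2 is a p53 target whose product marks p53 for degradation and so closes a feedback loop. Cdkn2a encodes p16, which blocks the kinases that inactivate the retinoblastoma protein, and from another first exon p19ARF, which holds back MDM2. Senescent cells are known for lasting arrest through p16 and p21, for loss of lamin B1 from the nuclear lamina and for high lysosomal beta-galactosidase activity. The GADD45 proteins are small stress proteins that bind PCNA, p21 and the kinase MAP3K4. Gadd45a is a p53 target, while Gadd45b and Gadd45g are mostly induced by cytokines, growth signals and metabolic stress.

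Of the probes on an array, 57.5% to 59.5% gave a signal well above background, and saturation occurred at 0 spots. Precision is limited by having only 3 arrays a genotype. The targeted gene Itpr2 had levels of 2.54, 2.38 and 2.20 in KO livers, against 3.04, 3.07 and 3.08 in WT livers. The groups did not overlap, and the limma adjusted p was 0.811, so the difference of -0.69 ± 0.13 (SE) did not pass the threshold of 0.05. Its 95% interval ran from -1.02 to -0.37. By unadjusted p (0.00170 in limma) Itpr2 was in place 34 of the 17991 genes fitted. The position of the Itpr2 probe relative to the deletion is unknown, so its level does not check the labels. WT 1 and KO 3 carried striated muscle transcripts: the summed linear signal of 8 muscle markers was 80.0 on KO 3 and 70.6 on WT 1, and at most 0.402 on the other 4 arrays, where 3 of the 8 markers were well above background.

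Gadd45g stood out among the 10 genes, with a higher level on every KO array than on any WT array. Its levels were 5.003, 3.78 and 4.62 in KO livers, against 3.37, 2.42 and 2.69 in WT livers. The means were 4.46 ± 0.63 in KO and 2.83 ± 0.49 in WT (SD, n = 3 each), a difference of 1.64 ± 0.38 (SE), or 3.11-fold. The 95% interval of that difference ran from 0.73 to 2.55. It did not pass over all genes (limma adjusted p = 0.811, unadjusted p = 0.00412), and p was 0.1 by exact permutation (two-sided), which is the lower limit for 3 against 3 arrays. By unadjusted p Gadd45g was in place 81 of the 17991 genes fitted. The arrays lay on 2 slides with both genotypes on each, and the difference was 2.11 within slide 1 and 1.51 within slide 2.

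The related genes Gadd45a and Gadd45b differed the other way on average, and their genotypes overlapped. Gadd45a had levels of -2.13, -1.38 and -2.10 in KO livers, against -2.08, -0.69 and -1.44 in WT livers, a difference of -0.47 ± 0.39 (SE). WT 1 lay with the lower KO arrays for this gene. Gadd45b had levels of -1.38, -1.76 and -0.73 in KO livers, against 0.12, -1.44 and -0.83 in WT livers, a difference of -0.58 ± 0.44 (SE). Only WT 1 lay above all 3 KO arrays for Gadd45b. The 95% intervals, from -1.40 to 0.46 for Gadd45a and from -1.63 to 0.48 for Gadd45b, included 0 and lay below the interval of Gadd45g. Single arrays moved both: Gadd45a ran from -0.81 without WT 1 to -0.11 without WT 2, and Gadd45b from -0.94 without WT 2 to -0.16 without WT 1.

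The 3 GADD45 genes also differ in the DNA just before their starts, and the 250 bases upstream of each are shown for that contrast, from RefSeq on build GRCm38.p6. Capitals in Gadd45g, at chr13:51846425-51846674 (plus strand), and Gadd45b, at chr10:80929841-80930090 (plus strand), mark the E-box CACGTG, the site of clock and MYC family factors. Capitals in Gadd45a, at chr6:67037408-67037657 (minus strand), mark a match to the half-site consensus of p53.
Gadd45g: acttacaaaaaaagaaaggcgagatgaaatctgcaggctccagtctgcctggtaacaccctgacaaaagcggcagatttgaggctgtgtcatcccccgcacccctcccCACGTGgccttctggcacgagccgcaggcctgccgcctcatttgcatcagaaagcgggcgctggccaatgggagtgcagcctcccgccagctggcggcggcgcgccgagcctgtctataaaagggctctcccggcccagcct
Gadd45b: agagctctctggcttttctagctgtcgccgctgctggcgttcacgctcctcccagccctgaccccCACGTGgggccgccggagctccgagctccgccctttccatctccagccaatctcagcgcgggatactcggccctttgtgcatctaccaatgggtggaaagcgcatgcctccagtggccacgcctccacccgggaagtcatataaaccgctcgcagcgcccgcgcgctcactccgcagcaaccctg
Gadd45a: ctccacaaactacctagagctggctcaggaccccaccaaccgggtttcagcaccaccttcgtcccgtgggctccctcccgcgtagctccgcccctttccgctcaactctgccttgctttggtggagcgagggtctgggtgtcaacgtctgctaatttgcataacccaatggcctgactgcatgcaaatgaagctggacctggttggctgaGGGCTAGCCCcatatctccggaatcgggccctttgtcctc
The E-box began 142 bases before the start in Gadd45g and 185 before it in Gadd45b, and 6.02% of all 32851 windows of this length held one on either strand. Gadd45g and Gadd45b also held TATAAA, at 27 and 46 bases before the start, as did 12.4% of all windows. Gadd45a held neither, and its p53 half-site match began 40 bases before the start. CCAAT occurred in all 3 windows and in 33.8% of all windows. The GC box GGGCGG occurred in Gadd45a and Gadd45b and not in Gadd45g, and in 32.7% of all windows. Gadd45b shared the E-box and TATAAA with Gadd45g, but its mean was lower in KO, like that of Gadd45a. These matches are letters in a window and say nothing of binding in these livers.

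**Figure D1:**
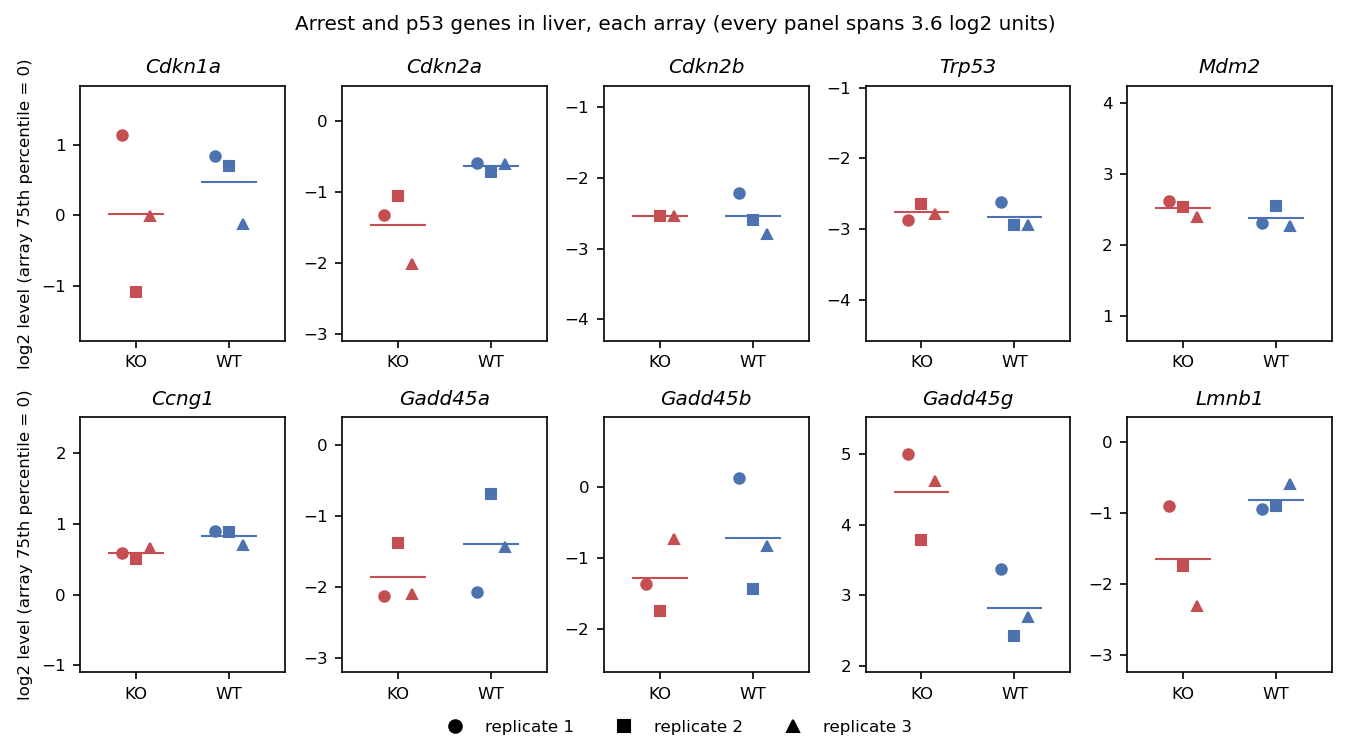
Log2 level of each of the 10 genes on each array, relative to the 75th percentile of that array, with KO left of WT; symbols are arrays by replicate number, lines are group means, and every panel has the same span. Gadd45g lies higher, and Cdkn2a and Ccng1 lower, on all KO arrays shown than on all WT arrays, while Cdkn1a runs from 1.13 on KO 1 to -1.08 on KO 2; Cdkn2b has 2 KO arrays.

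Among the kinase inhibitors, Cdkn2a was lower on every KO array. Its levels were -1.33, -1.06 and -2.02 in KO livers, against -0.59, -0.72 and -0.60 in WT livers. The WT arrays lay within a narrow band (-0.64 ± 0.072, SD, n = 3) and the KO arrays were spread more widely below it (-1.47 ± 0.49, SD, n = 3), with KO 3 lowest. The difference was -0.83 ± 0.25 (SE), 1.78-fold lower, with a 95% interval from -1.43 to -0.23. It did not pass (limma adjusted p = 0.811, unadjusted p = 0.0145, exact permutation p = 0.1). It was -0.68 within slide 1 and -0.93 within slide 2. Without KO 3 the difference was -0.56, and without both arrays with muscle transcripts -0.53 (unadjusted p = 0.0374 in limma).

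The second Cdkn2a probe was not well above background on any KO array and was so on 1 of 3 WT arrays. Its signals of -6.46, -6.92 and -6.19 in KO livers, against -5.52, -5.91 and -5.61 in WT livers, are near background and were not fitted. The array pairs both probes with the same RefSeq transcript, and the exons they match are unknown. The level therefore cannot be assigned to p16 or to p19ARF.

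Cdkn1a (p21) was spread widely among the arrays, and its genotypes overlapped. It had levels of 1.13, -1.08 and -0.015 in KO livers, against 0.84, 0.70 and -0.12 in WT livers, and KO 1 and KO 2 were the highest and the lowest of all 6 arrays. The difference was -0.46 ± 0.57 (SE), with a 95% interval from -1.82 to 0.90, and an exact permutation test gave p = 0.7. This probe was printed at 10 spots on each array, of which 9 were used on KO 3, and the SD between its spots was 0.062 to 0.088 within an array, which leaves out labelling and hybridisation. The SD between arrays was 1.11 in KO livers and 0.52 in WT livers. The difference was 0.36 within slide 1, -0.42 within slide 2, -0.031 with the slide as a block and 0.086 without KO 2. The second Cdkn1a probe, paired with another transcript, was well above background on 0 of 6 arrays.

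Cdkn2b, which encodes the p16 relative p15, had levels of -2.54 and -2.54 on KO 2 and KO 3, since its spot on KO 1 was an outlier and was dropped. It had -2.22, -2.60 and -2.79 in WT livers, and the KO arrays lay among them. The difference was -0.0026 ± 0.21 (SE), with a 95% interval from -0.53 to 0.52. The second Cdkn2b probe was well above background on 1 KO array and 0 WT arrays.

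The p53 gene and its antagonist were close in both genotypes. Trp53 had levels of -2.87, -2.64 and -2.78 in KO livers, against -2.62, -2.94 and -2.94 in WT livers, a difference of 0.069 ± 0.15 (SE). Its 95% interval ran from -0.29 to 0.42. Mdm2 had levels of 2.62, 2.54 and 2.39 in KO livers, against 2.31, 2.54 and 2.27 in WT livers, a difference of 0.14 ± 0.14 (SE). Its 95% interval ran from -0.20 to 0.47. Both genotypes overlapped for each gene. The p53 protein is regulated mainly by its stability, which RNA levels do not measure.

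Ccng1, which encodes cyclin G1, a p53 target that acts on Mdm2 through a phosphatase, was slightly lower on every KO array. Its levels were 0.59, 0.51 and 0.67 in KO livers, against 0.90, 0.88 and 0.71 in WT livers. KO 3 and WT 3 lay close together at the border of the groups. The difference was -0.24 ± 0.12 (SE), 1.18-fold lower, with a 95% interval from -0.54 to 0.059 (limma adjusted p = 0.811, unadjusted p = 0.0980). It was -0.30 within slide 1 and -0.12 within slide 2.

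The same upstream windows of 3 p53 targets are shown because they are established targets of p53, with capitals at matches to the p53 half-site. Cdkn1a is at chr17:29090729-29090978 (plus strand), Mdm2 at chr10:117710759-117711008 (minus strand) and Ccng1 at chr11:40755287-40755536 (minus strand), all from RefSeq on build GRCm38.p6.
Cdkn1a: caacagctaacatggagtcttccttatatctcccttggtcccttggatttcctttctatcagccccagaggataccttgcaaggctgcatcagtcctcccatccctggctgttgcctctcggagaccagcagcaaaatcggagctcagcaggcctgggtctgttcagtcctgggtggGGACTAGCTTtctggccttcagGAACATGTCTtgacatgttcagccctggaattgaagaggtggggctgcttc
Mdm2: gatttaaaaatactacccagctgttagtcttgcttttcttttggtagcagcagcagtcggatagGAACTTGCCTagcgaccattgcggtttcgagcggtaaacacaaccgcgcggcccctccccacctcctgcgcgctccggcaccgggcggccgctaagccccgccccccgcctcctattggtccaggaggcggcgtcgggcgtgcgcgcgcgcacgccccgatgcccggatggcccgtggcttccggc
Ccng1: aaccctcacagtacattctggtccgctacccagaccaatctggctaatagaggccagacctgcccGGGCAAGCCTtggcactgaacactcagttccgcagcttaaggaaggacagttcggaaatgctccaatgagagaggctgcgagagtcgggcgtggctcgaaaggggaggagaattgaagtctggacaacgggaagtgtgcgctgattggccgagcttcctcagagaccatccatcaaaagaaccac
The Cdkn1a window shown held 2 matches, with 12 bases between them, and Mdm2 and Ccng1 held 1 each. In Cdkn1a the stretch tgacatgttc directly follows the second match. It missed the consensus only at its first base, so it is in lower case. The window of the second Cdkn1a start, at chr17:29093519-29093768 (plus strand), was searched too and held 0. With Gadd45a and Trp53, 5 of the 11 windows searched for 9 of the genes held a match, while 7.13% of all 32851 windows did. The genes were picked for cell cycle arrest and the p53 pathway, so these shares are not like for like and were not tested. The consensus was searched on both strands. The Cdkn1a window shown lies upstream of the window of its second start. The best known p53 sites of Mdm2 lie in its first intron, outside the window shown. The genes with a match included Ccng1, which lay lower in KO, and Trp53 and Mdm2, whose genotypes overlapped. One other member window held the cyclic AMP response element TGACGTCA, that of Cdkn2b, as did 1.55% of all windows.

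**Figure D2:**
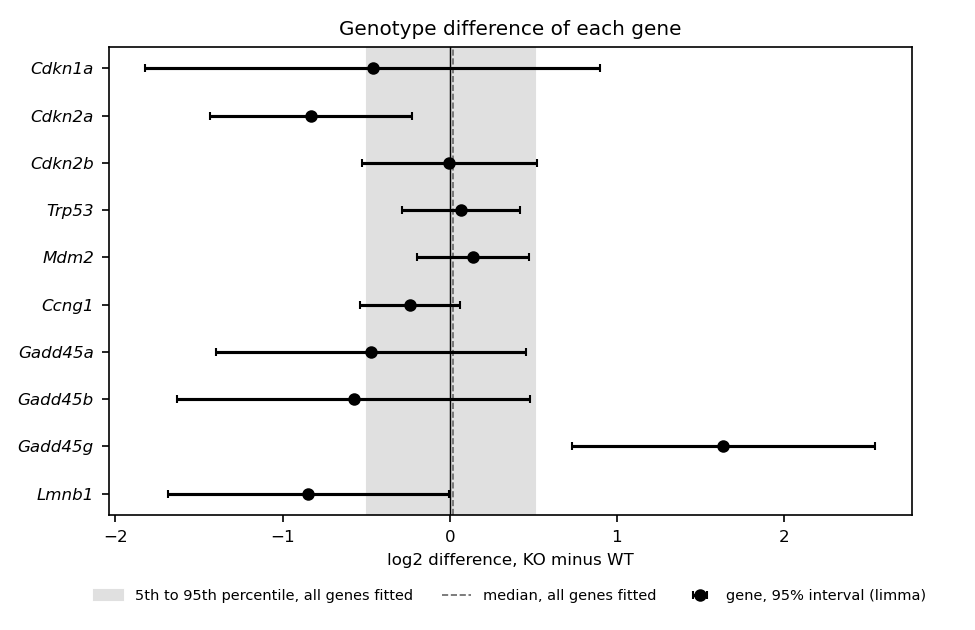
Difference of each gene, KO minus WT on the log2 scale (points), with its 95% interval from the limma fit (bars), above the 5th to 95th percentile range of all 17991 genes fitted (grey) and their median (dashed). Intervals of Gadd45g, Cdkn2a and Lmnb1 leave out 0, before any adjustment for the number of genes, and the other 7 include it.

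Lmnb1, which encodes lamin B1, was lower on 2 of the 3 KO arrays. Its levels were -0.90, -1.75 and -2.30 in KO livers, against -0.93, -0.89 and -0.59 in WT livers. KO 1 lay with the WT arrays, and KO 2 and KO 3 lay below all of them. The difference was -0.84 ± 0.35 (SE), with a 95% interval from -1.68 to -0.0060 (limma adjusted p = 0.811, unadjusted p = 0.0488, exact permutation p = 0.2). The SD between arrays was 0.71 in KO livers and 0.19 in WT livers, and the 10 spots of this probe had an SD of 0.054 to 0.11 within an array. KO 2 and KO 3 were both on slide 2, and the difference was -1.43 there and 0.011 within slide 1, where KO 1 was the only KO array. With the slide as a block it was -0.71 (unadjusted p = 0.104). The other lamin genes had differences of -0.17 ± 0.16 (SE) for Lmna and 0.12 ± 0.28 (SE) for Lmnb2, so only the Lmnb1 interval left out 0 among the 3.

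Across the 10 genes, 0 passed the adjusted threshold in limma, where 1 of 17991 genes did (0.00556%), Mansc4. At an unadjusted p under 0.05 there were 3 of the 10 (Gadd45g higher, Cdkn2a and Lmnb1 lower), against 6.13% of all genes (3.46% higher, 2.66% lower). The genotypes did not overlap for 3 of the 10 (Gadd45g higher, Cdkn2a and Ccng1 lower), against 12.1% of all genes (6.93% higher, 5.18% lower). Of the 10 genes, 7 had a lower mean in KO, against 45.9% of all genes. The median difference of the 10 was -0.35, beside 0.022 over all genes. That median was -0.10 without KO 2, -0.18 without WT 1, -0.16 without WT 2 and -0.12 with the slide as a block. The normexp background correction turned it to 0.069. Without WT 1 and KO 3, 2 of the 10 had an unadjusted p under 0.05 (Gadd45g and Cdkn2a), against 6.86% of all genes, and the median was -0.25. Of the 1102 genes at an unadjusted p under 0.05, 623 were higher and 479 lower in KO, and 272 and 627 with arrays centred on their median.

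**Figure D3:**
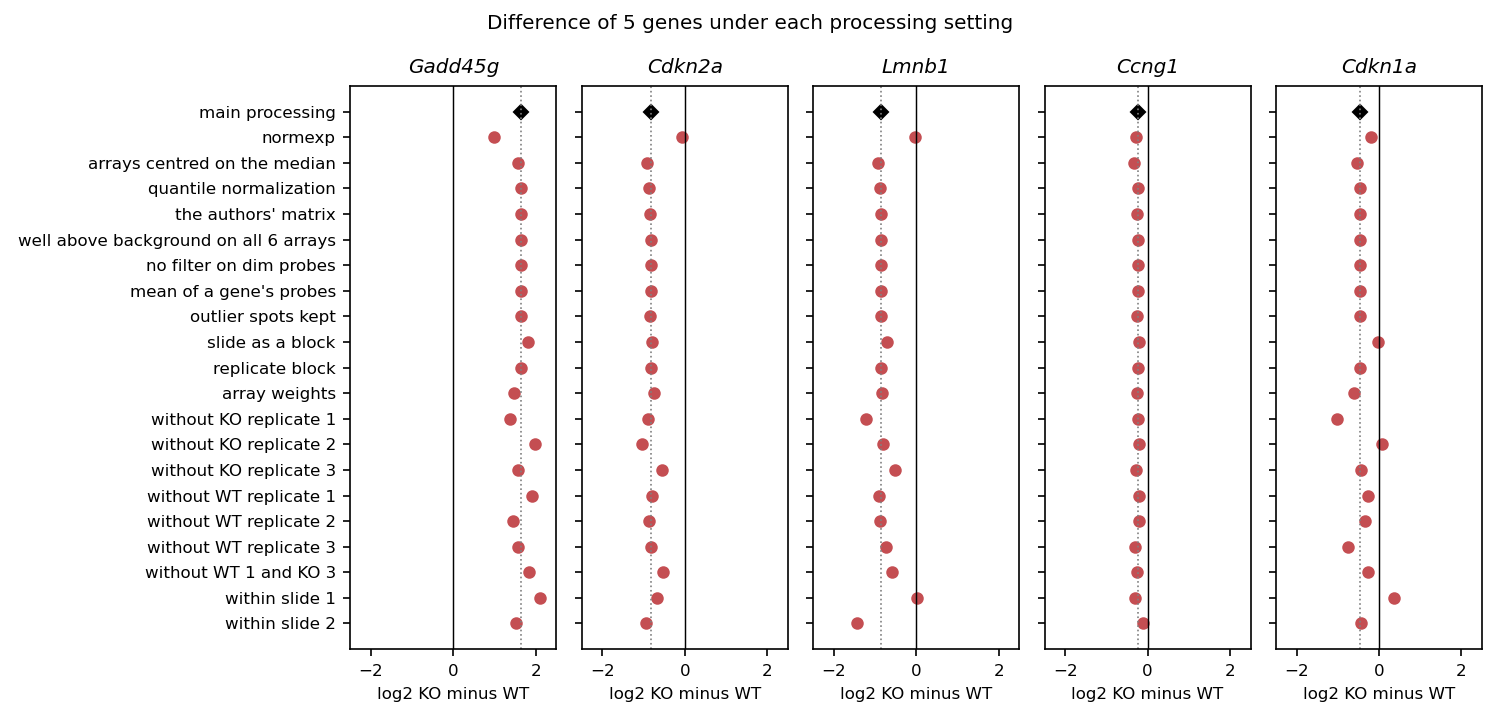
Difference of 5 genes, KO minus WT on the log2 scale, under the main processing (black) and each alternative (red), down the page. Gadd45g stays between 0.99 and 2.11 and Cdkn2a between -1.03 and -0.068, while Cdkn1a and Lmnb1 cross 0.

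Other p53 targets were nearly balanced between genotypes. Of 26 further targets 23 were measured, 9 with a higher and 14 with a lower mean in KO, and their median was -0.027, beside 0.022 over all genes. None passed the adjusted threshold in limma, and 1 of 23 had an unadjusted p under 0.05, against 6.13% of all genes. This was Pmaip1, which encodes the cell death protein NOXA, with levels of -1.69, -2.04 and -1.75 in KO livers, against -0.90, -1.57 and -1.33 in WT livers, and a difference of -0.56 ± 0.21 (SE). Of 15 measured regulators of p53, 9 had a higher and 6 a lower mean, with a median of 0.035 and 0 past either threshold. Mdm4, which encodes the MDM2 relative that masks p53, had levels of -2.38, -1.69 and -2.13 in KO livers, against -2.55, -2.40 and -2.72 in WT livers, with no overlap. Its difference was 0.49 ± 0.21 (SE, unadjusted p = 0.0539 in limma). Ppm1d, a phosphatase gene that dampens the damage response, had a difference of 0.37 ± 0.17 (SE), and Hipk2, a kinase gene that activates p53, one of -0.45 ± 0.22 (SE).

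The list of the retinoblastoma pathway and other kinase inhibitors held 19 measured genes, 11 with a higher and 8 with a lower mean, and a median of 0.051. None passed the adjusted threshold in limma, and 2 of 19 had an unadjusted p under 0.05, against 6.13% of all genes. Ccnd1, which encodes cyclin D1, the partner of the kinases that p16 blocks, had levels of 2.54, 3.75 and 4.32 in KO livers, against 4.47, 4.88 and 4.56 in WT livers. All 3 KO arrays lay below the WT arrays, KO 1 furthest, and the difference was -1.10 ± 0.44 (SE). E2f3, a transcription factor gene of S phase entry, had levels of -1.06, -0.92 and -1.29 in KO livers, against -0.84, -0.48 and -0.65 in WT livers, a difference of -0.43 ± 0.16 (SE). Of the other inhibitors, Cdkn1b, Cdkn1c and Cdkn2c had differences of -0.084 ± 0.23, -0.12 ± 0.46 and 0.12 ± 0.24 (SE), and their genotypes overlapped. Cdkn2d, which encodes p19INK4d, had levels of 0.79, 0.60 and 0.59 in KO livers, against 0.21, 0.32 and 0.56 in WT livers. Its genotypes did not overlap, and the difference was 0.30 ± 0.15 (SE, unadjusted p = 0.0854 in limma).

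Of 20 measured cell cycle genes that are repressed during arrest, 9 were higher and 11 lower in mean, with a median of -0.11, beside 0.022 over all genes. None of the 20 passed the adjusted threshold in limma. The higher means were those of Mcm2 to Mcm7, Tyms, Pcna and Foxm1. The lower means were those of Mki67, Top2a, Ccna2, Ccnb1, Ccnb2, Cdk1, Cdc20, Plk1, Aurka, Birc5 and Rrm2. This split was seen in the values and was not tested. Mcm7, a subunit of the replicative helicase, was the 1 of 20 at an unadjusted p under 0.05, against 6.13% of all genes, with levels of 1.36, 1.35 and 1.67 in KO livers, against 1.06, 0.98 and 1.21 in WT livers, and a difference of 0.38 ± 0.15 (SE). Mki67, the proliferation marker gene, had levels of -1.14, -1.44 and 0.032 in KO livers, against -0.51, -0.41 and -0.44 in WT livers. KO 3 lay above and the other KO arrays below all WT arrays for Mki67.

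Binding partners of the GADD45 proteins and kinases below them had a lower mean in KO for all 7 measured, against 45.9% of all genes. Their differences ran from -0.41 to -0.041, with a median of -0.11, and 0 passed either threshold. The smallest unadjusted p among them belonged to the MAP kinase kinase gene Map2k7, with a difference of -0.34 ± 0.22 (SE), followed by Map2k6 with -0.41 ± 0.40 and Mapk14, which encodes p38, with -0.11 ± 0.15. All 7 genes were measured on the same 6 arrays and are not independent of each other.

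Genes of the lamina and of senescence-linked chromatin had a higher mean for 11 of 14, against 54.1% of all genes. Their median was 0.067, with 0 past either threshold. Sun2, a nuclear envelope protein gene, had a difference of 0.44 ± 0.22 (SE), Lemd3, of the inner nuclear membrane, one of 0.29 ± 0.15, and the chromatin protein gene Hmga2 one of 0.45 ± 0.26. Of 8 lysosomal enzymes 4 had a higher and 4 a lower mean, with a median of 0.017. Glb1, which encodes the lysosomal beta-galactosidase of senescence staining, had levels of 0.38, 0.11 and 0.23 in KO livers, against 0.31, -0.0093 and 0.080 in WT livers. Its difference was 0.11 ± 0.15 (SE), with a 95% interval from -0.24 to 0.46, and the genotypes overlapped. Hexa, a subunit of beta-hexosaminidase and the 1 of 8 at an unadjusted p under 0.05 (6.13% of all genes), had a difference of -0.35 ± 0.14 (SE, unadjusted p = 0.0432 in limma) with no overlap.

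**Figure D4:**
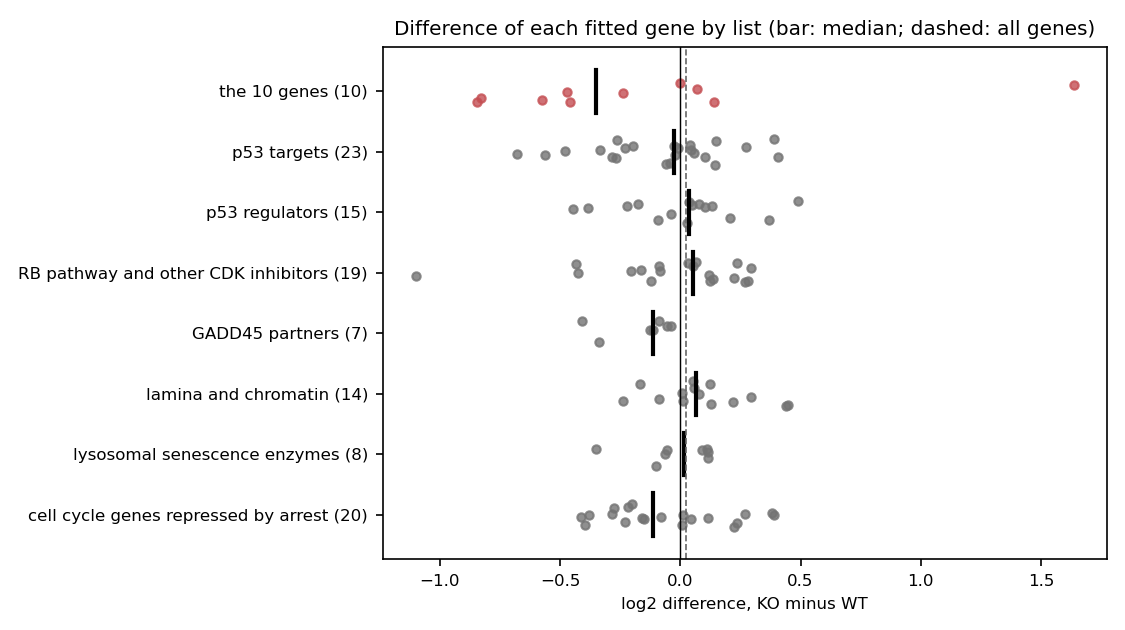
Difference of each measured gene, KO minus WT on the log2 scale, for the 10 genes (red) and the 7 related lists (grey), with the median of each list (bar) and of all genes (dashed) and the number of genes fitted in brackets. Medians of the related lists lie between -0.11 and 0.067, and Gadd45g has the highest difference of all genes drawn.

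Markers of several cell types also differed in mean between genotypes, while the summed signals overlapped for each type. Over all genes 54.1% had a higher and 45.9% a lower mean in KO. All 8 Kupffer cell markers had a lower mean in KO, with a median of -0.58, and their summed linear signal was 96.2 to 130 in KO livers, against 124 to 253 in WT livers. Hepatocyte markers had a higher mean in KO for 8 of 8, with a median of 0.21 and summed signals of 1332 to 1860 in KO livers, against 1192 to 1385 in WT livers. T and NK cell markers had a lower mean for 5 of 7 measured, with sums of 5.85 to 15.1 in KO livers, against 7.49 to 12.2 in WT livers. Neutrophil markers had a higher mean for all 7, and their sums were 292, 8.51 and 44.7 on KO 1, KO 2 and KO 3, against 26.6, 15.9 and 55.8 on WT 1, WT 2 and WT 3. A linear sum gives most weight to probes with strong signal. Lcn2 made up most of the neutrophil sum on KO 1 and on WT 3, with log2 levels of 7.87 and 5.34 there. The difference of Lcn2 was 0.090 ± 1.65 (SE). KO 3, the lowest array for Cdkn2a and Lmnb1, also stood apart in other markers. The summed signal of 6 fat markers was 15.1 on KO 3 and at most 1.90 on the other arrays, and Lep was not well above background anywhere. The sum of 6 B and plasma cell markers was 3.32, 4.17 and 17.3 on KO 1, KO 2 and KO 3, against 6.44, 6.82 and 1.01 on WT 1, WT 2 and WT 3, and 5 of the 6 had a higher mean in KO. Without KO 3 the difference was -0.56 for Cdkn2a and -0.52 for Lmnb1 (unadjusted p = 0.0102 and 0.120 in limma). All Kupffer and hepatocyte markers were well above background on all 6 arrays. In group means, Cdkn2a and Kupffer markers were both lower in KO, and Gadd45g and hepatocyte markers both higher. By array, KO 2 had the highest Cdkn2a and the lowest Kupffer sum of the KO arrays. WT 2 was the lowest WT array for both. KO 1 had the highest Gadd45g of all 6 arrays and the lowest hepatocyte sum of the KO arrays. WT 2 was the lowest of all arrays for both. The part of these cells in either result was not tested. In bulk liver RNA, fewer cells of a type and less RNA per cell cannot be told apart.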

How the data were processed

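The deposited scanner tables hold intensity values that Agilent Feature Extraction had background-subtracted, without scaling across arrays. Per the file headers the software was 11.5.1.1, and per the submitters' processing notes 10.7.3.1. A further table by the authors holds log2 values of 20644 probes, used as an alternative. It matched log2 scanner signals after scaling of arrays and centring of each probe, with higher values for more signal, and how its probes were chosen is unknown. Its column medians were -0.0127, 0.0106 and 0.00617 for KO 1 to KO 3 and 0.00207, -0.00940 and 0.00497 for WT 1 to WT 3, and the KO 2 column matched the KO 3 scanner table and the reverse (correlation 0.999 each), within 1 genotype.

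Values were log2 processed intensity minus the 75th percentile of each array, without control spots and 818 outlier spots, with spots of a probe averaged. Probes were named by accession through RefSeq GRCm38.p6 (28330 of 39429 had 1 symbol, 0 had several, 11099 had none). Probes well above background on all 3 arrays of a genotype were kept (22295), and each gene was represented by its probe of highest mean (17991 genes). Genotypes were compared with limma 3.58.1 in R 4.3.3 (lmFit, eBayes, two-sided, Benjamini-Hochberg over all genes), a procedure checked on simulated data. Single values were compared by exact permutation.

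The genes and lists were chosen with earlier results of these data known. Named genes were the 10 genes, Itpr2, Glb1 and, from each list, those at an unadjusted p under 0.05 or else the 3 with the smallest p. Lmna, Lmnb2, Cdkn1b, Cdkn1c, Cdkn2c, Cdkn2d, Mki67 and Mansc4 were named after their values were seen. Normexp was run on the median signal. Slide 1 held KO 1, WT 1 and WT 2, and slide 2 held KO 2, KO 3 and WT 3, with a scan for each slide, so slide and scan cannot be told apart.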

Additional observations from a re-analysis of the deposited data

How the results depend on the processing

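None of the 10 genes passed the adjusted threshold under any of the 18 alternatives with a test. Gadd45g kept its direction in all 20 alternatives (0.99 to 2.11) and an unadjusted p under 0.05 in 17 of 18, and Cdkn2a kept its direction in all 20 (-1.03 to -0.068) and that p in 17 of 18. The exception for both was the normexp background correction, which gave 5940 genes an unadjusted p under 0.05 (4917 higher, 1023 lower), against 1102, and for which the cause was not tested. Lmnb1 had that p in 7 of 18. With normexp 1 of the 10 genes, Trp53 (0.97), had that p, their median was 0.069, 0 genes passed over all genes, and the differences were 0.82 for Cdkn2b, -0.49 for Mdm2, 0.34 for Gadd45a and 0.16 for Gadd45b. The 1 gene past the threshold over all genes was lost (0 genes) when all 6 arrays had to be above background, with the replicate block and without WT 1 and KO 3, a choice made after seeing the data, and leaving out 1 array gave 0 to 1. The median of the 10 genes was -0.12 with the slide as a block, -0.090 within slide 1 and -0.21 within slide 2, where fewer arrays enter, and ran from -0.39 to -0.10 over the omission of 1 array, which gave 2 to 3 genes at an unadjusted p under 0.05. Over all genes that count was 1695 without KO 1 and 675 without WT 2. Cdkn2b turned to 0.23 with outlier spots kept, 0.25 with the slide as a block and within slide 2, 0.16 with the replicate block and without WT 1 and KO 3, and ran from -0.13 to 0.16 over the omission of 1 array. Trp53 turned to -0.012 with arrays centred on the median and to -0.090 within slide 1. Cdkn1a was 0.36 within slide 1 and ran from -1.02 to 0.086 over the omission of 1 array, and Lmnb1 was 0.011 within slide 1. The cause was not tested for these. The replicate numbers share only a number: deviations of arrays with the same number correlated at -0.19, 0.042 and -0.28 across genes, and the block, with median -0.35 and 2 genes at an unadjusted p under 0.05, moved no member across the adjusted threshold. Values within slide 1 rest on 1 KO array and those within slide 2 on 1 WT array. Dim second probes limit what can be said of Cdkn2a transcripts.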
